A study of Rattus norvegicus with 12 samples.

Results

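The immediate early transcription factors here are 10 genes, chosen by symbol with earlier results of these data known, from 18483 genes measured by RNA-seq. They are Fos (NCBI gene 314322), Fosb (100360880), Fosl1 (25445), Fosl2 (25446), Jun (24516), Junb (24517), Egr1 (24330), Myc (24577), Atf3 (25389) and Nr4a1 (79240). All 10 were among the 13967 genes kept by the filter on low counts. They were measured in NRVMs (neonatal rat ventricular myocytes), which are primary cultures from the ventricles of newborn Sprague-Dawley rats. Of the 4 groups, siNeg received a control siRNA, and siNeg PE received the control siRNA and phenylephrine (PE), an α-adrenergic agonist that enlarges cardiomyocytes. The siSlc39a2 group received an siRNA against Slc39a2, which encodes a zinc importer, and siSlc39a2 PE received both that siRNA and PE. Each group had 3 replicates, 12 samples in all, and every culture was kept in medium with insulin, transferrin and selenium. According to the labels, PE was given for 36 h, starting 12 h after transfection, whereas the culture methods of the study give a longer PE treatment. The knockdown used an siRNA of a single sequence, so an effect of that sequence on other genes and an effect of losing Slc39a2 cannot be told apart.

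Immediate early genes are transcribed within minutes of a stimulus, because their promoters are held ready and their activators, such as SRF and CREB, are switched on by kinases without new protein synthesis. Most of their transcripts decay fast, so the first peak is brief, and levels after a long stimulus are those of a later state. FOS proteins (Fos, Fosb, Fosl1, Fosl2) pair with JUN proteins (Jun, Junb) to form AP-1, and ATF3 is a stress-induced partner of JUN proteins. EGR1 and NR4A1 are a zinc-finger factor and an orphan nuclear receptor that relay growth and stress signals, and MYC drives ribosome synthesis and cell growth. In cardiomyocytes, adrenergic agonists are a textbook inducer of Fos, Jun, Egr1 and Myc. The samples here speak for the late time only.

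Promoter sequences from RefSeq (build GRCr8) were on hand for 6 of the 10 genes, namely Fosb, Fosl1, Fosl2, Junb, Egr1 and Nr4a1. Egr1 and Nr4a1 are shown because their transcripts differed in their late PE response (described further on). The last 120 bases before each start site follow, 5′ to 3′, with capitals marking a CArG box (the SRF site, CC and GG around A or T bases) in Egr1 and an EGR1 site in Nr4a1.
Egr1 (chr18:26736958-26737077, plus strand): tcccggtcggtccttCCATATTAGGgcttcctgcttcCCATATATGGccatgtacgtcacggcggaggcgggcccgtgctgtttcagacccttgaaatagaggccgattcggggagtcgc
Nr4a1 (chr7:134260018-134260137, plus strand): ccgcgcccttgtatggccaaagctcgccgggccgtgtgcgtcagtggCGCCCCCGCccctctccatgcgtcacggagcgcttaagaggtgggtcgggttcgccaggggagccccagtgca
Both CArG boxes of Egr1, CCATATTAGG and CCATATATGG, lie within 105 bases of the start site. A CArG box was found in 1.64% of 33469 promoters, each read from 250 bases before to 50 bases after the start on both strands. The EGR1 site, searched as GCGGGGGCG and its reverse complement, was found in 2.73% of promoters. It was present in Nr4a1 from base -73 to base -65 on the minus strand and in Fosl2 from base -249 to base -241 on the plus strand. A 9-base ISRE core (GAAANNGAA), the kind of element bound by interferon regulatory factors, was found in 9.71% of promoters and in Fosb, where the plus strand reads TTCTTTTTC. No full CRE (TGACGTCA, 1.83% of promoters), AP-1 site (TGANTCA, 7.33%) or MYC E-box (CACGTG, 6.42%) was found in any of the 6 windows. The windows of Fosl1 and Junb held none of the motifs searched. Near matches, such as tgcgtca in the Nr4a1 stretch shown, were not counted. These are matches of letters and were not tested for binding.

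Total counts per sample were between 24065539 and 28603854. Slc39a2 had 2.06 ± 0.229 CPM in siNeg samples (counts scaled to library size; SD, n = 3), against 0.392 ± 0.324 CPM (SD, n = 3) in siSlc39a2. With PE, Slc39a2 was at 5.71 ± 1.92 CPM in siNeg PE and 1.13 ± 0.260 CPM in siSlc39a2 PE (SD, n = 3 each). Nppb, a natriuretic peptide gene that marks hypertrophy, had 8.24 ± 1.50 CPM in siNeg and 300 ± 67.7 CPM in siNeg PE (SD, n = 3 each). The summed level of 10 cardiomyocyte markers lay between 14026 and 16025 FPKM (counts scaled to transcript length and library size) in all samples. The sum of 10 fibroblast markers was 2533 to 3453 FPKM in siNeg, 1821 to 2378 in siNeg PE, 1129 to 1235 in siSlc39a2 and 754 to 1059 in siSlc39a2 PE, so the sum was lower with knockdown and with PE. Of these 10, 5 were lower and past the threshold (absolute log2 fold change above 1 and adjusted p below 0.05) in each knockdown comparison, with none higher. Of all genes, 9.78% passed it without PE and 11.6% with PE. The PE comparisons put none past it, where 6.6% of all genes passed in siNeg cells and 10.5% in knockdown cells. By adjusted p 2 were higher and 5 lower in siNeg cells (24% and 25.7% of all genes). In knockdown cells 3 were higher and 4 lower (30.7% and 29.3%). The sum of 9 macrophage and other leukocyte markers was 70.5 to 99.4 FPKM in siNeg and between 28.8 and 51.4 FPKM in the other groups. Lyz2 weighed most in it, with a median of 32.7 FPKM over the samples, against 5.33 FPKM for Cd68, the next highest. Endothelial markers (7 genes) summed to 2.97 to 4.72 FPKM throughout, with Emcn listed at 0 in 5 samples. The 6 smooth muscle and pericyte markers summed to 2006 to 2182 FPKM in siSlc39a2, against 3036 to 3517 FPKM in the other groups. Most of that sum was Des (1589 to 2654 FPKM over the samples) and Acta2 (370 to 947 FPKM). Myh11 (1.02 to 2.05 FPKM) and Rgs5 (0.09 to 0.42 FPKM) were low. By adjusted p, all 6 were lower for knockdown without PE (26.4% of all genes). With PE, knockdown had 1 higher and 1 lower (29.2% and 28.1% of all genes). Immediate early genes are expressed in all these cell types, and the part of the cell makeup in the differences described below was not tested. In bulk RNA, fewer cells of a type and less RNA per cell cannot be told apart.

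The 10 transcripts spanned a wide range of levels. In FPKM, which takes transcript length into account, the mean over all 12 samples was highest for Junb (45.2), followed by Egr1 (35.6), Jun (25.1), Myc (10.4), Atf3 (10.2), Nr4a1 (9.31), Fos (5.58), Fosl2 (3.69), Fosl1 (3.16) and Fosb (0.412). Within siNeg the order was different. Egr1 was first at 39.3 ± 1.70 FPKM and Junb second at 35.7 ± 3.74 FPKM (SD, n = 3 each), with overlapping samples. Jun followed at 17.3 ± 0.528, Myc at 10.1 ± 0.115 and Nr4a1 at 6.99 ± 0.245 FPKM (SD, n = 3 each), each apart from its neighbours. Fosl2 (4.15 ± 0.551 FPKM) and Atf3 (3.78 ± 0.526 FPKM) overlapped, as did Fosl1 (2.38 ± 0.147 FPKM) and Fos (2.25 ± 0.431 FPKM; SD, n = 3 each). Fosb was lowest, at 0.480 ± 0.0889 FPKM (SD, n = 3), and its counts were 21 to 47 per sample, so its values are the least precise of the 10.

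**Figure D1:**
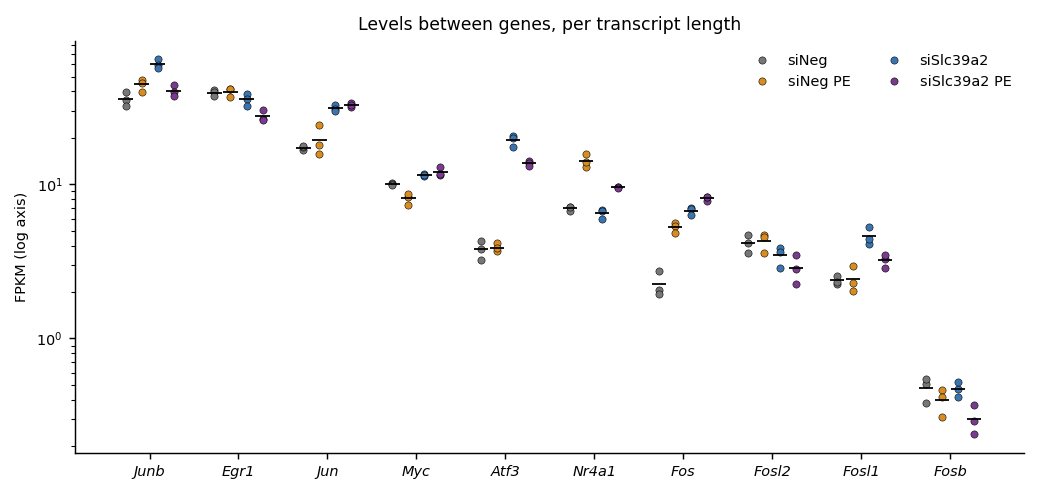
FPKM of each gene on a log axis, with 1 point per sample coloured by group and a bar at the group mean (n = 3). Junb, Egr1 and Jun lie above 15 FPKM in every sample, Fosb lies below 1 FPKM, and Atf3 has a mean of 3.78 FPKM in siNeg and 19.4 FPKM in siSlc39a2.

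For PE in control cells at this time, Fos was the one member past the threshold (absolute log2 fold change above 1 and adjusted p below 0.05), and it was higher with PE. Over all genes tested, 6.6% passed that threshold. By adjusted p alone, Fos and Nr4a1 rose, Myc fell and 7 members did not pass, where 24% of all genes were higher and 25.7% lower. The median log2 fold change of the 10 was -0.04, against -0.01 over all genes. Jun, Junb, Egr1, Atf3 and the other 3 FOS family genes thus did not pass the test for PE in siNeg cells.

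Slc39a2 knockdown without PE put Atf3 and Fos past the threshold, both higher, where 9.78% of all genes passed. Without the fold limit, Atf3, Fos, Fosl1, Jun and Junb rose and Egr1 fell, and 4 members did not pass. Of all genes, 22.8% were higher and 26.4% lower by that rule. The median log2 fold change of the 10 members was 0.33, against -0.02 over all genes.

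With PE present, knockdown left Atf3 as the one member past the threshold, where 11.6% of all genes passed. Without the fold limit, Fos, Fosl1, Jun, Myc and Atf3 were higher and Fosl2, Egr1 and Nr4a1 were lower in siSlc39a2 PE than in siNeg PE. Of all genes, 29.2% were higher and 28.1% lower by that rule. The 10 members had a median log2 fold change of 0.13, against 0.01 over all genes.

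PE in knockdown cells put no member past the threshold, where 10.5% of all genes passed. On adjusted p only, Nr4a1 and Fos rose, and Fosb, Fosl1, Junb, Egr1 and Atf3 fell, where 30.7% of all genes were higher and 29.3% lower. The median log2 fold change of the 10 was -0.27, against 0.01 over all genes. The comparisons share samples with each other, so their values are given side by side for each gene below.

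**Figure D2:**
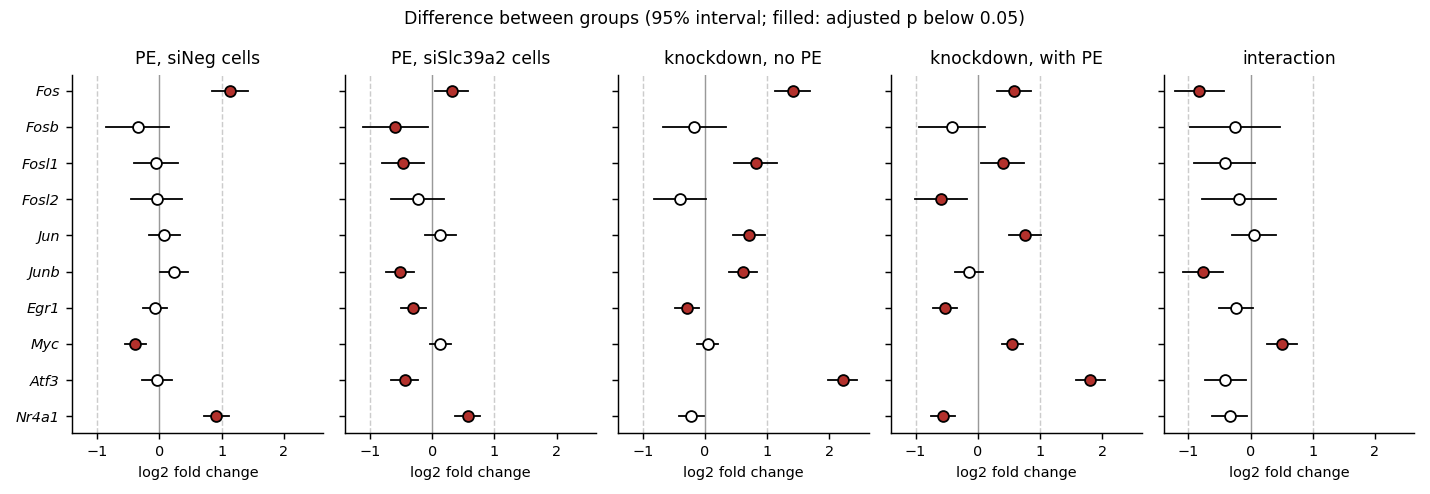
Log2 fold change of each gene in the 5 comparisons, with 95% intervals from edgeR; filled points have an adjusted p below 0.05 and dashed lines mark the fold threshold. Atf3 stands at 2.22 and 1.81 in the knockdown panels, and Fos at 1.14 in the panel of PE in siNeg cells.

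Fos, the founding member of AP-1, rose with PE and with knockdown, and its levels separated all 4 groups. It had 5.65, 4.17 and 3.78 CPM in siNeg and 10.4, 10.2 and 9.32 in siNeg PE, against 12.7, 12.3 and 11.1 in siSlc39a2 and 14.4, 15.5 and 15.0 in siSlc39a2 PE. Every siNeg sample was below every other sample, and the siSlc39a2 PE samples were highest. With PE, Fos rose in siNeg cells by 1.14 on the log2 scale (SE 0.13, edgeR adjusted p = 3.34e-05). Knockdown alone raised it by 1.41 (SE 0.13, edgeR adjusted p = 2.24e-06). In the presence of PE, the knockdown difference was 0.58 (SE 0.12, edgeR adjusted p = 0.00144). PE in knockdown cells gave 0.31 (SE 0.12, edgeR adjusted p = 0.0418), and this call was lost when any of the 6 samples of the comparison was left out (edgeR adjusted p between 0.0578 and 0.167) and in 6 of 9 other fits. In limma fits on FPKM, PE in siNeg cells gave a log2 fold change as low as 0.80, which is under the fold threshold. Most Fos counts were not whole numbers (2 of 12 were), so it takes part of reads that also match elsewhere and its values are uncertain to that extent.

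Of the other FOS family genes, only Fosl1 was higher with knockdown as Fos was, and none passed as higher with PE. Fosl1, which encodes FRA1, had 4.34, 3.75 and 3.78 CPM in siNeg and 3.24, 3.52 and 4.66 in siNeg PE, against 8.06, 6.23 and 6.59 in siSlc39a2 and 5.22, 4.48 and 5.38 in siSlc39a2 PE. The siSlc39a2 samples were above all others, and siNeg and siNeg PE overlapped. Knockdown alone raised Fosl1 by a log2 fold change of 0.81 (SE 0.16, edgeR adjusted p = 0.00106; 0.53 with limma on log2(FPKM + 1)), and PE in knockdown cells lowered it (log2 fold change -0.47, SE 0.16, edgeR adjusted p = 0.0203). The second call was lost without siSlc39a2 PE replicate 2 or siSlc39a2 replicate 1 (edgeR adjusted p of 0.0823 and 0.102). With PE, knockdown gave 0.40 (SE 0.16, edgeR adjusted p = 0.0489), which was lost in 8 of 9 other fits and without siNeg PE replicate 1 or 2 or siSlc39a2 PE replicate 1 or 3 (edgeR adjusted p between 0.106 and 0.172). The interval of the PE difference in siNeg cells was -0.41 to 0.30. None of the 12 Fosl1 counts was whole, so it also shared reads.

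Fosl2, which encodes FRA2, had 4.03, 4.36 and 3.27 CPM in siNeg and 3.24, 4.05 and 4.04 in siNeg PE, against 3.28, 3.15 and 2.38 in siSlc39a2 and 2.01, 3.04 and 2.47 in siSlc39a2 PE. Every siSlc39a2 PE sample was below every siNeg and siNeg PE sample, and the siSlc39a2 samples overlapped all other groups. Its one call was the lower level in siSlc39a2 PE than in siNeg PE, at -0.59 (SE 0.19, edgeR adjusted p = 0.0202). That call was lost without siNeg PE replicate 2 or 3 or siSlc39a2 PE replicate 1 (edgeR adjusted p between 0.0581 and 0.0772). The knockdown difference without PE was -0.40 (SE 0.19, edgeR adjusted p = 0.103), which passed in the 3 limma fits on FPKM. PE in siNeg cells gave -0.04, with an interval of -0.45 to 0.37.

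Fosb, a FOS family member at low level here, had 1.74, 1.25 and 1.81 CPM in siNeg and 0.995, 1.44 and 1.32 in siNeg PE, against 1.42, 1.59 and 1.25 in siSlc39a2 and 1.16, 0.897 and 0.764 in siSlc39a2 PE. The siSlc39a2 PE samples were all below those of siNeg and siSlc39a2. PE in knockdown cells gave -0.60 (SE 0.24, edgeR adjusted p = 0.0474). This call was lost in 7 of 9 other fits and without siSlc39a2 PE replicate 2 or 3 or siSlc39a2 replicate 1 or 2 (edgeR adjusted p between 0.0926 and 0.165). In the remaining comparisons its log2 fold changes lay between -0.42 and -0.17 with edgeR adjusted p of 0.161 or more, and the widest interval was -0.98 to 0.48 in the interaction.

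Because the FOS family genes moved unequally, their mix differed between groups. Their FPKM summed to 9.26 ± 0.803 in siNeg and 12.4 ± 0.704 in siNeg PE, against 15.3 ± 1.34 in siSlc39a2 and 14.5 ± 0.696 in siSlc39a2 PE (SD, n = 3 each). Of this sum, Fos made up 24.2% ± 2.89 in siNeg and 42.7% ± 5.46 in siNeg PE, against 44.2% ± 1.75 in siSlc39a2 and 56.0% ± 0.529 in siSlc39a2 PE (SD, n = 3 each). The share of Fos was thus lowest in every siNeg sample and highest in every siSlc39a2 PE sample, while the family sums of siSlc39a2 and siSlc39a2 PE overlapped.

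**Figure D3:**
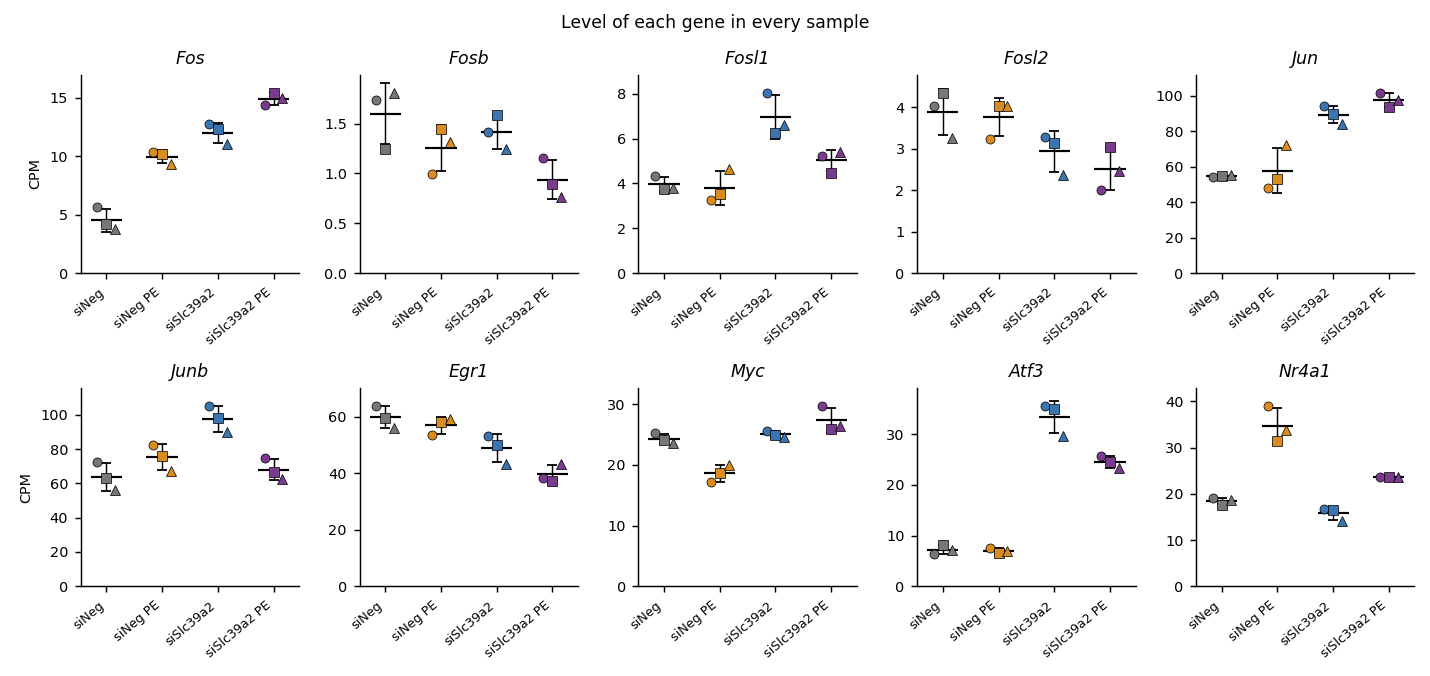
CPM of each gene in every sample, with circles, squares and triangles for replicates 1, 2 and 3, a long bar at the group mean and whiskers of 1 SD (n = 3). Fos rises over the 4 groups without overlap, Atf3 and Jun are high in both knockdown groups, Nr4a1 is highest in siNeg PE, and Junb is highest in siSlc39a2.

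Jun, the main partner of Fos in AP-1, was higher in knockdown cells whether PE was present or not. It had 54.3, 54.6 and 55.4 CPM in siNeg and 48.1, 53.1 and 72.3 in siNeg PE, against 94.1, 89.6 and 84.4 in siSlc39a2 and 102, 94.0 and 97.6 in siSlc39a2 PE. All 6 knockdown samples were above all 6 control samples, and siNeg PE replicate 3 stood above the other controls. Knockdown raised Jun by a log2 fold change of 0.71 without PE (SE 0.12, edgeR adjusted p = 2.96e-04) and by 0.76 with PE (SE 0.12, edgeR adjusted p = 1.39e-04). PE gave 0.08 in siNeg cells (95% interval -0.17 to 0.33) and 0.13 in knockdown cells (-0.12 to 0.38), and neither passed.

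Junb, a JUN protein that is a weaker activator than JUN itself, behaved differently. It had 72.6, 62.9 and 56.3 CPM in siNeg and 82.4, 75.9 and 67.5 in siNeg PE, against 105, 98.1 and 90.0 in siSlc39a2 and 74.6, 66.8 and 62.7 in siSlc39a2 PE. The siSlc39a2 samples were above all others, and the other 3 groups overlapped. In every group the level fell from replicate 1 to replicate 3, and the main fit has no term for the replicate number. Knockdown without PE raised Junb by 0.61 (SE 0.11, edgeR adjusted p = 4.06e-04), and PE in knockdown cells lowered it (log2 fold change -0.52, SE 0.11, edgeR adjusted p = 0.00102). With PE, the knockdown difference was -0.15 (SE 0.11, edgeR adjusted p = 0.253), which passed in 1 of 9 other fits. PE in siNeg cells gave 0.24 (SE 0.11, edgeR adjusted p = 0.0802), which passed in 5 of 9 other fits and without siNeg PE replicate 3 or siNeg replicate 1 (edgeR adjusted p of 0.0477 and 0.0257).

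Jun and Junb together summed to 52.9 ± 3.22 FPKM in siNeg and 63.7 ± 0.405 in siNeg PE, against 91.3 ± 5.44 in siSlc39a2 and 73.2 ± 4.15 in siSlc39a2 PE (SD, n = 3 each). Jun made up 32.7% ± 2.97 of that sum in siNeg and 30.2% ± 6.69 in siNeg PE, against 34.1% ± 0.529 in siSlc39a2 and 44.8% ± 1.65 in siSlc39a2 PE (SD, n = 3 each). Its share was highest in the siSlc39a2 PE samples, where Jun was high and Junb was not.

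Atf3, a stress-induced member of the ATF family, had the largest change of the 10 genes. It had 6.32, 8.11 and 7.13 CPM in siNeg and 7.59, 6.51 and 6.90 in siNeg PE, against 35.6, 34.9 and 29.7 in siSlc39a2 and 25.7, 24.6 and 23.3 in siSlc39a2 PE. Every knockdown sample was above every control sample, and the siSlc39a2 PE samples lay between. Without PE, knockdown raised Atf3 4.64-fold, a log2 fold change of 2.22 (SE 0.11, edgeR adjusted p = 3.97e-09). With PE, it raised Atf3 3.50-fold, a log2 fold change of 1.81 (SE 0.11, edgeR adjusted p = 3.17e-08). PE in knockdown cells lowered it (log2 fold change -0.45, SE 0.10, edgeR adjusted p = 0.00215). PE in siNeg cells gave -0.04, with an interval of -0.29 to 0.21. Both knockdown differences stayed past the threshold in every other fit, with log2 fold changes between 1.55 and 2.34. Of the 12 Atf3 counts 7 were whole, so a part of its reads was shared with another gene.

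Egr1, a zinc-finger factor and the classic early target of SRF, was lower in knockdown cells and was not among the genes that passed for PE in siNeg cells. It had 63.8, 59.5 and 55.9 CPM in siNeg and 53.5, 58.2 and 59.1 in siNeg PE, against 53.3, 50.02 and 43.3 in siSlc39a2 and 38.4, 37.4 and 43.2 in siSlc39a2 PE. The siSlc39a2 PE samples were below all others, and siNeg and siNeg PE overlapped. Knockdown with PE lowered Egr1 (log2 fold change -0.52, SE 0.09, edgeR adjusted p = 3.37e-04). Without PE, knockdown gave -0.29 (SE 0.09, edgeR adjusted p = 0.0175), a call lost without siNeg replicate 1 or siSlc39a2 replicate 3 (edgeR adjusted p of 0.0646 and 0.162). PE in knockdown cells gave -0.30 (SE 0.09, edgeR adjusted p = 0.0116), lost without siSlc39a2 PE replicate 2 or siSlc39a2 replicate 1 (edgeR adjusted p of 0.0526 and 0.0604). PE in siNeg cells gave -0.07 (95% interval -0.26 to 0.13).

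Nr4a1, the nuclear receptor also called NUR77, rose with PE in control and in knockdown cells. It had 19.0, 17.6 and 18.7 CPM in siNeg, 39.0, 31.4 and 33.7 in siNeg PE, 16.8, 16.5 and 14.2 in siSlc39a2, and 23.6 in each siSlc39a2 PE sample. The groups did not overlap, with siNeg PE highest and siSlc39a2 lowest. PE raised Nr4a1 by 0.91 in siNeg cells (SE 0.09, edgeR adjusted p = 1.16e-05) and by 0.57 in knockdown cells (SE 0.09, edgeR adjusted p = 2.33e-04). Knockdown with PE lowered it (log2 fold change -0.56, SE 0.09, edgeR adjusted p = 2.22e-04), and without PE it gave -0.22 (SE 0.09, edgeR adjusted p = 0.0698), which passed in 5 of 9 other fits. Of the genes with an EGR1 site in the window searched, Nr4a1 passed for PE in siNeg cells and Fosl2 did not. Egr1, which has CArG boxes, did not pass. The part of these motifs in the PE response was not tested.

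Myc, the growth regulator, was lowest in siNeg PE. It had 25.2, 24.1 and 23.6 CPM in siNeg and 17.2, 18.6 and 19.9 in siNeg PE, against 25.6, 25.0 and 24.6 in siSlc39a2 and 29.7, 25.9 and 26.5 in siSlc39a2 PE. All siNeg PE samples were below all others, while siNeg and siSlc39a2 overlapped. PE in siNeg cells lowered Myc (log2 fold change -0.39, SE 0.08, edgeR adjusted p = 0.00189), and knockdown with PE raised it by 0.56 (SE 0.08, edgeR adjusted p = 7.71e-05). Knockdown without PE gave 0.05 (95% interval -0.13 to 0.22), and PE in knockdown cells gave 0.13 (-0.04 to 0.30).

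The interaction, the knockdown difference with PE less that without PE, tests whether the PE response differed between siNeg and knockdown cells. No member passed the fold threshold in the interaction, where 0.988% of all genes did. By adjusted p alone, Junb and Fos were lower and Myc was higher, where 1.88% of all genes were lower and 1.73% higher. Junb had -0.76 (SE 0.15, edgeR adjusted p = 0.0137), and this passed in every other fit and without any one sample. Fos had -0.82 (SE 0.18, edgeR adjusted p = 0.0243). The Fos call was lost without siNeg replicate 2 or 3, siNeg PE replicate 1 or 2, siSlc39a2 replicate 1 or 2, or siSlc39a2 PE replicate 2 (edgeR adjusted p between 0.0564 and 0.0786), and in the 3 limma fits on FPKM (adjusted p between 0.0701 and 0.120). Myc had 0.51 (SE 0.11, edgeR adjusted p = 0.0237). The Myc call was lost without siNeg replicate 2, siNeg PE replicate 1 or 2, siSlc39a2 replicate 1, 2 or 3, or siSlc39a2 PE replicate 1 (edgeR adjusted p between 0.0593 and 0.0700), and without the filter on low counts (edgeR adjusted p = 0.0550). For Atf3 (-0.41, edgeR adjusted p = 0.200) and Nr4a1 (-0.34, edgeR adjusted p = 0.218) a difference in PE response was not shown. Jun had 0.05, with an interval of -0.30 to 0.41.

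Other immediate early genes (39 of 40 listed were tested) included paralogs of the 10 factors, phosphatases and matricellular factors. In siNeg PE against siNeg, 5 were past the threshold and higher and none lower, where 6.6% of all genes passed. By adjusted p alone, 13 were higher and 10 lower, against 24% and 25.7% of all genes. The largest changes were Nr4a3 (2.22), an Nr4a1 paralog, Dusp2 (1.67), a MAP kinase phosphatase, and Sik1 (1.59), a kinase that restrains CREB coactivators (log2 fold changes). For knockdown without PE (9.78% of all genes past the threshold), 3 were higher and 1 lower, led by Npas4 (-1.75, from 5 to 16 counts per siNeg sample and 2 to 6 per siSlc39a2 sample), Csrnp1 (1.30), which encodes the nuclear protein AXUD1, and Plk2 (1.21), a polo-like kinase gene. For knockdown with PE (11.6% of all genes), 3 were higher and 5 lower, led by Dusp2 (-1.71), Ctgf (1.60), a matricellular factor, and Plk2 (1.42). For PE in knockdown cells (10.5% of all genes), 6 were higher and 1 lower, led by Npas4 (2.34), Nr4a3 (1.97) and Sik1 (1.47). In the interaction (0.988% of all genes), 2 were higher and 3 lower, led by Ctgf (2.22), Dusp2 (-1.58) and Cyr61 (1.40). On the log2 scale, the list's median lay between -0.04 and 0.23 in the 5 comparisons.

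The EGR and NR4A paralogs are named here after their values were seen, and differences between paralogs were not tested. Egr2, a close relative of Egr1, had 7.31 ± 0.960 CPM in siNeg and 18.7 ± 0.566 in siNeg PE, against 6.40 ± 1.18 in siSlc39a2 and 8.06 ± 0.475 in siSlc39a2 PE (SD, n = 3 each). Its PE response was 1.35 in siNeg cells (edgeR adjusted p = 8.62e-06) and 0.33 in knockdown cells (edgeR adjusted p = 0.0491), with an interaction of -1.02 (SE 0.19, edgeR adjusted p = 0.00924). Egr2 was lower in siSlc39a2 PE than in siNeg PE, by a log2 fold change of -1.21 (edgeR adjusted p = 7.23e-06), as Egr1 was. Egr3 did not pass for PE in siNeg cells (0.33, edgeR adjusted p = 0.138) and was lower for knockdown with PE (-1.29, edgeR adjusted p = 7.97e-05). Nr4a3 had 1.21 ± 0.198 CPM in siNeg and 5.65 ± 0.506 in siNeg PE, against 1.96 ± 0.0388 in siSlc39a2 and 7.68 ± 1.12 in siSlc39a2 PE (SD, n = 3 each). Nr4a3 was higher in siSlc39a2 PE than in siNeg PE, by 0.44 (SE 0.14, edgeR adjusted p = 0.0174), where Nr4a1 was lower. Nr4a2 rose with PE in siNeg cells (0.62, edgeR adjusted p = 0.0208) and in knockdown cells (0.55, edgeR adjusted p = 0.0288), as Nr4a1 did.

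Genes that act upstream of the 10 factors, such as SRF, CREB, MAP kinases and the adrenergic receptors, made up a list of 34 tested genes. Past the threshold were 1 for PE in siNeg cells (6.6% of all genes), none for knockdown without PE (9.78%), 1 for knockdown with PE (11.6%) and 2 for PE in knockdown cells (10.5%). Adra1b, an α-adrenergic receptor gene, was the one past it in both PE comparisons and in knockdown with PE, and was lower each time (log2 fold changes of -1.02, -1.70 and -1.07). Rps6ka3, a kinase gene of the ERK pathway, was higher in siSlc39a2 PE than in siSlc39a2, by 1.05. Without the fold limit, 11 of the 34 were higher and 13 lower for PE in siNeg cells, against 24% and 25.7% of all genes. For knockdown without PE 6 were higher and 9 lower, against 22.8% and 26.4% of all genes. With PE, knockdown had 8 higher and 12 lower (29.2% and 28.1% of all genes), and PE in knockdown cells had 12 higher and 12 lower (30.7% and 29.3%).

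Among partners of AP-1, MYC and EGR1 (24 of 26 listed were tested), knockdown without PE put 3 past the threshold higher and 3 lower, where 9.78% of all genes passed. Knockdown with PE put 1 higher and 4 lower, where 11.6% passed. Batf2, a basic leucine zipper gene of the AP-1 superfamily, had 0 to 2 counts in siNeg samples and 4 to 5 in siNeg PE samples, against 228 to 358 in siSlc39a2 and 198 to 237 in siSlc39a2 PE. Maf, a leucine zipper factor found in macrophages among other cells, was lower in both knockdown comparisons (log2 fold changes of -1.30 without and -1.99 with PE), and none of its counts was whole. The summed macrophage and other leukocyte markers given above were also lower in siSlc39a2 than in siNeg samples. Of the 8 tested singly, 4 were lower by adjusted p, none was higher and 4 did not pass, where 26.4% of all genes were lower. For knockdown with PE 3 were lower and none higher, where 28.1% of all genes were lower. For PE in siNeg cells 4 were lower and none higher, where 25.7% of all genes were lower. Maf itself had 8.03 ± 0.666 CPM in siNeg and 12.2 ± 0.930 CPM in siNeg PE (SD, n = 3 each). The part of these cells in the Maf difference was not tested. For PE in siNeg cells 2 partners were higher and none lower (6.6% of all genes), and for PE in knockdown cells 2 were higher and 1 lower (10.5%). In the latter, Nr4a3 had 1.97, Mxd1, a MYC antagonist, had -1.10, and Mafk had 1.08. No upstream regulator and no partner was past the threshold in the interaction.

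Known target genes of AP-1 and MYC (32 of 35 listed were tested) had 4 higher and 3 lower past the threshold for knockdown without PE (9.78% of all genes), and 6 higher and 3 lower for knockdown with PE (11.6%). Without the fold limit these were 15 and 9 (22.8% and 26.4% of all genes), and 19 and 7 (29.2% and 28.1%). Ccl2, a chemokine that attracts monocytes, led both, with 27.5 ± 1.40 CPM in siNeg and 24.7 ± 0.542 in siNeg PE, against 521 ± 22.2 in siSlc39a2 and 423 ± 19.3 in siSlc39a2 PE (SD, n = 3 each), or log2 fold changes of 4.24 without and 4.10 with PE. Il6, a cytokine gene, had 1.74 and 2.01, but from 2 to 9 counts per control sample. Spp1, which encodes osteopontin, had -1.48 without PE. For PE in siNeg cells 1 was higher and 1 lower past the threshold (6.6% of all genes). Without the fold limit these were 7 and 6 (24% and 25.7% of all genes). The higher one past the threshold was Timp1, a metalloproteinase inhibitor, at 1.46. For PE in knockdown cells (10.5% of all genes) 2 were higher and none lower, Hbegf (1.25), a growth factor of the EGF family, and Nop58 (1.13), a nucleolar protein gene. In the interaction 2 were higher, among them Hbegf (1.14). None of the counts of Timp1 was whole, so it takes part of reads that also match elsewhere.

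**Figure D4:**
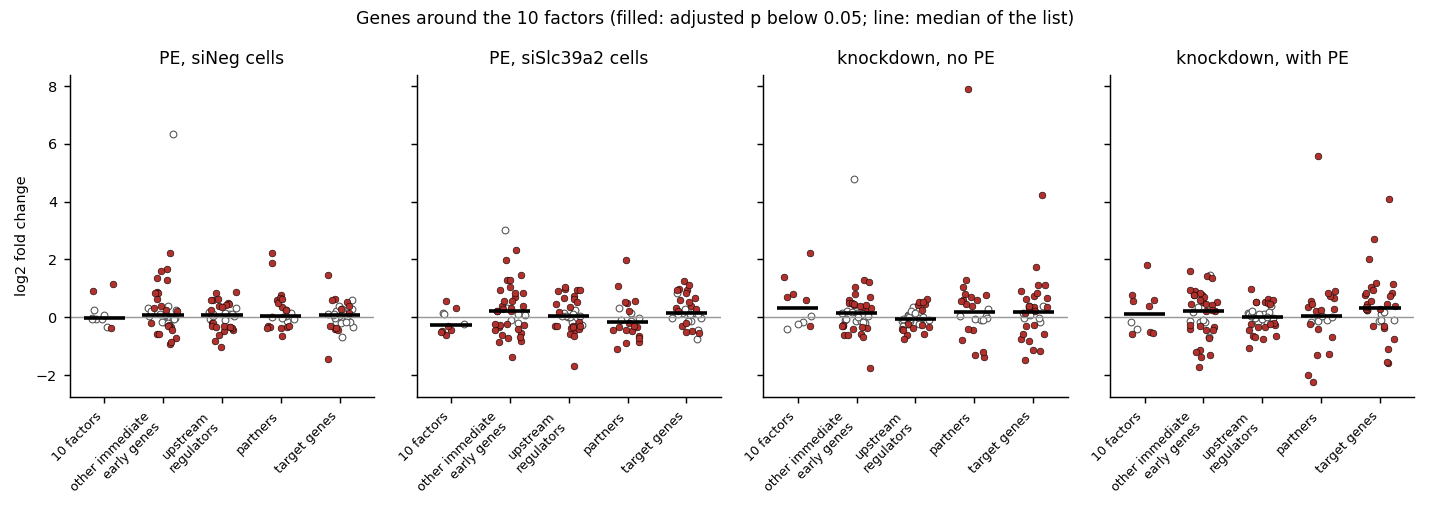
Log2 fold change of every tested gene of the 10 factors and of the 4 lists in each comparison other than the interaction; filled points have an adjusted p below 0.05 and the bar is the median of the list. Medians stay near 0, from -0.27 to 0.33, and the highest filled points are Batf2 (7.89 and 5.57, from near-zero counts in controls) and Ccl2 (4.24 and 4.10), while the unfilled point at 6.33 is Zfp36l2 (SE 2.99).

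The genes whose pattern over the 12 samples was most like that of the 2 members past the threshold were found by the root mean square difference of centred log2 CPM, among the 11747 genes whose log2 CPM averaged above 1. For Fos they were Plscr1 (0.195), Abra (0.197) and Hsd11b1 (0.214), where the SD of Fos itself was 0.69 over the samples. For Atf3 they were Irf9 (0.125), Pml (0.131) and Tapbpl (0.135), where the SD of Atf3 was 1.07. The likeness is a description over samples that share 4 group means, and no test was made of it.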

How the data were processed

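RNA-seq of NRVMs was analysed from processed values. The authors deposited FPKM values and unnormalized expected counts for each gene, where a read that matches several genes is split between them. The submitters' processing notes name HISAT, Bowtie2 and the build Rnor_6.0. Their versions are not given in the sources used here. Of the expected counts 78.7% were whole numbers. Replicates were no copies of each other, with a chi-square of 4.69 to 34.1 per degree of freedom. The smallest number taken as detected, 3 counts, equals 0.102 to 0.118 CPM, and covers counting error only.

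In R 4.3.3, expected counts were rounded, and edgeR 4.0.16 removed 4516 low genes (filterByExpr) and applied TMM. One model with a term per group held all 12 samples (8 residual degrees of freedom). Its quasi-likelihood F-tests gave 5 comparisons, each with Benjamini-Hochberg adjustment over 13967 genes. The threshold, after the methods of the study, was an adjusted p under 0.05 and a log2 fold change beyond 1 in either direction. CPM used TMM library sizes, and log2 CPM a prior count of 2. Intervals are 95% intervals of the fit. The study describes the replicates as independent biological samples, while the labels do not tie them to separate isolations of cells, so p-values measure the spread between these samples.

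The 10 members, the other gene lists, the markers and the motifs were chosen with earlier results of these data known. Named genes are the 10 members in every comparison, at most 3 genes of each other list with the largest changes past the threshold in a comparison, and the 3 genes most like a member past the threshold. Slc39a2 and Nppb served as checks. Some genes that this rule would name are not reported here. The text marks any other gene as chosen after its values were seen.

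Alternatives were DESeq2 1.42.0, RLE size factors, no filter, a fit of the groups of each comparison alone, a replicate block, and limma 3.58.1 after quantile normalization on log2(FPKM + 1), with and without a filter, log2(FPKM + 0.1) and log2(count + 1). Each sample was also left out in turn, and the adjusted p was used alone. On simulated data, edgeR with and without the replicate block, DESeq2 and limma on log2(count + 1) were tested. The 200 changed genes were all changed by knockdown and all beyond the fold threshold, and each fit recovered 197 to 199. Recovery of smaller changes, of an interaction or of a replicate effect was not tested. Gene coordinates of the files' build were not used here.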

Additional observations from a re-analysis of the deposited data

Results flagged for a closer look

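The difference in PE response between siNeg and knockdown cells passed the edgeR test by adjusted p for 3 members. It was -0.82 for Fos, -0.76 for Junb and 0.51 for Myc on the log2 scale, as the knockdown difference with PE less that without PE. Fos was higher with PE by 1.14 in siNeg cells and by 0.31 in knockdown cells. Junb had 0.24 and -0.52 in the same comparisons, and Myc -0.39 and 0.13. The difference for Junb passed in each of the other fits, while those for Fos and Myc did not pass in 7 of 12 fits without 1 sample. Fibroblast markers differed between the groups compared, and their part in these values was not tested.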

How the results depend on the processing

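Of 50 results for single members (10 genes in 5 comparisons), 37 stayed on the same side of the adjusted p threshold in all fits. The number was 41 in the 9 alternatives and 40 with each sample left out. Results that did not pass could change sign and still be counted here. Jun for PE in siNeg cells, for example, lay between -0.11 and 0.20 with 1 sample left out. Of 800 values none reversed a call, 62 lost one and 16 gained one. By adjusted p alone the members past the threshold numbered 3 for PE in siNeg cells, 6 for knockdown without PE, 8 for knockdown with PE, 7 for PE in knockdown cells and 3 in the interaction, against 1, 2, 1, 0 and 0 with the fold threshold. For PE in siNeg cells the count of members was 0 in each of the 3 limma fits on FPKM. In the interaction it was 0 to 1 with 1 sample left out, and it was 1 without siNeg replicate 1. In the same order of comparisons, 922, 1366, 1621, 1469 and 138 of all genes passed. By adjusted p alone they were 6935, 6873, 8001, 8378 and 504. With limma on log2(FPKM + 1) they were 288, 612, 673, 584 and 85, and without its filter 286, 608, 672, 579 and 82. The pseudocount compresses the changes of low genes.

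Deviations from the group mean of samples with the same number had correlations across genes of 0.0535 to 0.315 for PE in siNeg cells, -0.0107 to 0.0250 and 0.00387 to 0.320 for knockdown without and with PE, and -0.0904 to 0.221 for PE in knockdown cells. Of 6 samples in each comparison, 4, 2, 4 and 2 correlated best with their own number. The numbers were to be taken as pairs only where every such correlation of a comparison was above 0.1. No comparison met this, so the main fit has no term for the replicate number. With the replicate block 46 of the 50 results were on the same side. Junb passed for PE in siNeg cells (0.24, edgeR adjusted p = 0.00159) and for knockdown with PE (-0.14, edgeR adjusted p = 0.0217), Nr4a1 passed for knockdown without PE (-0.22, edgeR adjusted p = 0.0376), and Fosb did not for PE in knockdown cells (-0.60, edgeR adjusted p = 0.0616). Depth limits Fosb (21 to 47 counts per sample) and Fosl2 (54 to 115) most.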

Other observations

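Among the 10 members, the pair with the most similar pattern over the 12 samples was Egr1 and Fosl2, with a root mean square difference of 0.168 in centred log2 CPM. Over the samples the SD was 0.26 for Egr1 and 0.34 for Fosl2, and genes that vary little are close by this measure. Both had their lowest mean in siSlc39a2 PE, where the Fosl2 samples overlapped those of siSlc39a2. The summed FPKM of the 10 members lay between 116.66 and 127.73 in siNeg, 138.83 and 144.62 in siNeg PE, 167.31 and 191.31 in siSlc39a2 and 147.67 and 155.09 in siSlc39a2 PE, without overlap between groups. In CPM the sums of siSlc39a2 (307.6 to 355.9) and siSlc39a2 PE (296.1 to 316.8) overlapped. Junb, Egr1 and Jun, the highest of the 10 in mean FPKM (45.2, 35.6 and 25.1), weigh most in the FPKM sums. In the edgeR test on counts none of them passed for PE in siNeg cells, where the median log2 fold change of the 10 was -0.04. In the limma fits on FPKM Junb did pass, with a log2 fold change of 0.34 (limma adjusted p between 0.00694 and 0.0128).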
